A study of Rattus norvegicus with 18 samples.

Results

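Messenger RNA levels of 9 genes of peroxisomal fatty acid oxidation were followed in rat liver. The genes were *Acox2*, *Ehhadh*, *Acaa1a*, *Hsd17b4*, *Decr2*, *Crat*, *Ech1*, *Amacr* and *Pex11a*, and they were found by the gene symbol that the array's annotation gives each probe set. Of the 9, 8 had a probe set of their own among the 14217 genes tested. *Acaa1a* was named only by a probe set that also names its close relative *Acaa1b*, so it has no level of its own here. Where a gene had several probe sets, the brightest by mean over all arrays stood for it, which concerned *Pex11a* alone.

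The livers came from adult male Sprague Dawley rats kept for 8 weeks on a chow diet, on a high fat diet (HFD), or on that diet plus a pomegranate skin extract, 150 mg/kg daily (HFD+PE). All rats were fasted overnight before the liver was taken, and the title of the series gives the question as how the extract acts on non-alcoholic fatty liver disease. The labels describe the HFD livers as fatty and those of the other groups as normal. RNA of whole liver was hybridised to Affymetrix arrays, with 6 arrays per group and none for the extract on chow, so the extract can be judged only on top of the high fat diet.

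Peroxisomes shorten fatty acids that mitochondria handle poorly: very long chains, methyl-branched chains, dicarboxylic acids and the side chain of bile acid precursors. An acyl-CoA oxidase makes the first step and releases hydrogen peroxide, a bifunctional enzyme hydrates and dehydrogenates the product, and a thiolase cuts off acetyl-CoA or propionyl-CoA. The shortened acyl groups leave as carnitine esters and are finished in mitochondria. In rodent liver many of these genes are switched on by the fatty acid receptor PPAR-alpha, which pairs with a retinoid X receptor on direct repeats of the hexamer AGGTCA with 1 base between them.

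That pairing makes the DNA before each gene of interest. RefSeq promoters on the rat build GRCr8, from 250 bases before the start of transcription to 50 after it, were available for 8 of the 9 genes, with *Ech1* not matched. Both strands were searched for AGGTCANAGGTCA with at most 2 mismatches. *Crat* and *Amacr* held a match, that is 2 of 8 genes, against 1263 of 33469 promoters in all, or 3.77%. With at most 1 mismatch, 0 of the 8 held it, against 147 promoters or 0.439%. The 6-base AGGTCA by itself, which overlaps the longer motif, was present in *Hsd17b4* and *Amacr*, against 16.2% of all promoters. The 250 bases before the start are shown for the 2 genes with a match and for *Ehhadh*, the gene with the largest difference between groups below and no match in its window. They run 5′ to 3′ on the strand of the gene, with the matched bases in capitals.

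Crat, chr3:34087100-34087349, minus strand: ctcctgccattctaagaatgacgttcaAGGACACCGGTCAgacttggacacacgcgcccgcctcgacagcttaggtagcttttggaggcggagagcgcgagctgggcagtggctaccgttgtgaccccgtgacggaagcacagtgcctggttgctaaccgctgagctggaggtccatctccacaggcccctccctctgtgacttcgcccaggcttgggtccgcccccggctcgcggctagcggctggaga
Amacr, chr2:61673085-61673334, plus strand: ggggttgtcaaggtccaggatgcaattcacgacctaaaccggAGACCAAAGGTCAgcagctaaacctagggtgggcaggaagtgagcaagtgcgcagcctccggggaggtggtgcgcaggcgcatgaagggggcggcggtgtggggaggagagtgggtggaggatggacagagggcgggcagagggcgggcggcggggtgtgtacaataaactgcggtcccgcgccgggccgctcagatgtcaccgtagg
Ehhadh, chr11:92746159-92746408, plus strand: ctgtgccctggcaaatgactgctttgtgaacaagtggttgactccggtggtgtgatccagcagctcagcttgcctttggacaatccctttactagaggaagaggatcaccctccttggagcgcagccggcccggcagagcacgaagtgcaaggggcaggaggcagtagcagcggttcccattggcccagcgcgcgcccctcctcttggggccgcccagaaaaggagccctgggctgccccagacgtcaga

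In *Crat* the match reads AGGACACCGGTCA and lies 223 to 211 bases before the start. In *Amacr* it reads AGACCAAAGGTCA at 208 to 196 bases before the start, and its last 6 bases are an exact AGGTCA. These promoters are rich in G and C, at 63.6% for *Crat*, 65.2% for *Amacr* and 62.0% for *Ehhadh* against a median of 51.2% over all promoters. A match describes letters in this window and says nothing about whether a receptor binds there.

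Levels are log2 signals as deposited, rounded to 0.1, so that a difference of 1 is a doubling, and they are compared between animals for 1 gene and never between genes. In each group 1 pair of arrays (chow 3 and 4, HFD 1 and 2, HFD+PE 3 and 4) had 0 probe sets over 2 log2 units apart, against 18 to 109 in the other 150 pairs of arrays. Each such pair was averaged and counted as 1 animal, written chow 3-4 and so on, which leaves 5 animals per group. In the labels every array is a biological replicate, and the pairing rests on that count alone. By the SD of the difference over all probe sets, HFD 1 and 2 (0.117) and chow 3 and 4 (0.215) were closer than any other pair, but HFD+PE 3 and 4 (0.260) were no closer than HFD 3 and 5 (0.260). By the share of equal values HFD 1 and 2 stood clear at 42.9%, while chow 3 and 4 at 20.2% and HFD+PE 3 and 4 at 18.1% did not, since other pairs reached 20.9%. This choice decides whether *Ehhadh* is called below. For the 8 genes the 2 arrays of a pair differed by 0.05 in the median and by at most 0.3. Hybridization controls are RNAs added to each sample before it goes on the array. The mean of bioC, bioD and cre, the control level below, split the arrays into 13 with 11.4 to 11.842 and 5 with 12.35 to 12.917. The high set held 3 chow arrays, 0 HFD arrays and 2 HFD+PE arrays. The control bioB was left out of this mean and did not follow it. In the high set bioB was 9.667 in chow 1, 6.283 in chow 2, 6.083 in chow 3, 7.0 in HFD+PE 1 and 5.883 in HFD+PE 3. In the low set it ran from 7.95 to 8.55. Hepatocyte markers were bright in every animal, with *Alb* (albumin) at 14.9 to 15 and the mean of 11 of the 12 markers at 13.10 to 13.46 in chow, 13.21 to 13.45 in HFD and 13.30 to 13.52 in HFD+PE. Markers of macrophages, 10 of 12 measured, had means per animal of 8.36 to 9.09 in chow, 7.72 to 8.55 in HFD and 7.52 to 8.40 in HFD+PE, and the highest was chow 2. In whole liver, fewer cells of a type and less RNA per cell cannot be told apart.

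No member passed an adjusted p of 0.05 in limma in any of the 3 comparisons, nor did any other gene: 0.0% of the 14217 genes were called in each. The smallest adjusted p over all genes was 0.315 for HFD against chow, 0.993 for HFD+PE against HFD and 0.104 for HFD+PE against chow. What the data hold is therefore a set of levels and differences with their intervals. The largest were those of *Ehhadh* and *Ech1*, between HFD+PE and chow. All 8 genes had their highest group mean with the extract. *Crat*, *Pex11a*, *Decr2* and *Amacr* had their lowest group mean on HFD. *Ehhadh*, *Ech1*, *Acox2* and *Hsd17b4* had their lowest on chow.

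**Figure D1:**
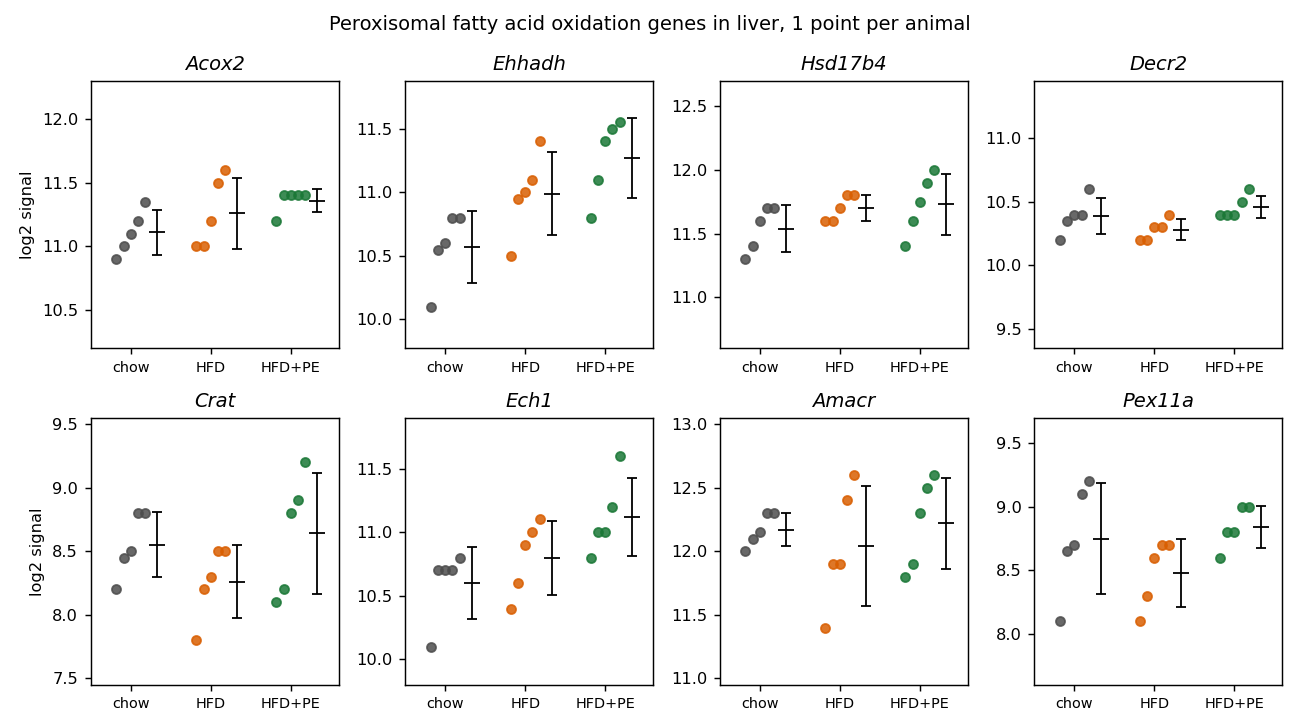
Log2 signal of the 8 genes with a probe set of their own, 1 point per animal, 5 animals in each of the chow, HFD and HFD+PE groups, with the mean and SD beside the points. Every vertical axis spans the same number of log2 units, and for each gene the points of the 3 groups overlap.

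*Ehhadh* encodes the L-bifunctional enzyme, which hydrates and then dehydrogenates straight-chain and dicarboxylic acyl-CoAs and is a classic target of PPAR-alpha. Its log2 levels in chow were 10.80 in animal 1, 10.10 in animal 2, 10.55 in animal 3-4, 10.80 in animal 5 and 10.60 in animal 6. In HFD they were 10.95, 10.5, 11.0, 11.10 and 11.40 in animals 1-2, 3, 4, 5 and 6. In HFD+PE they were 10.80, 11.10, 11.55, 11.50 and 11.40 in animals 1, 2, 3-4, 5 and 6. Of the HFD+PE animals, 4 lay above every chow animal and animal 1 equalled the highest of them, while HFD overlapped both other groups.

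The mean of *Ehhadh* was 10.57 ± 0.29 (SD) in chow, 10.99 ± 0.32 in HFD and 11.27 ± 0.32 in HFD+PE, with n = 5 in each. HFD+PE lay 0.70 log2 units above chow (95% interval 0.33 to 1.07), a 1.62-fold difference. By limma the adjusted p was 0.139, and the unadjusted p 0.000965. Permuting the animals gave an exact two-sided p of 0.0238. HFD lay 0.42 above chow (0.05 to 0.79, adjusted p = 0.611) and HFD+PE 0.28 above HFD (-0.09 to 0.65, adjusted p = 0.993). Across the 3 groups the moderated F test gave an unadjusted p of 0.00349 and an adjusted p of 0.333.

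Treating all 18 arrays as separate animals brought *Ehhadh* past the threshold, at 0.75 between HFD+PE and chow with an adjusted p of 0.0313. Of its 2 paired measurements that straddled the control sets, each read 0.3 higher on the array of the high set. HFD+PE exceeded chow by 0.75 among the low-set arrays and by 0.72 among the high-set arrays. Taking the control level as a covariate left 0.62 for HFD+PE against chow, but cut the difference of HFD from chow to 0.20 (adjusted p = 0.969) and moved that of HFD+PE from HFD to 0.42 (adjusted p = 1.0). Without HFD 3, its lowest HFD animal, HFD+PE against HFD came to 0.16, and without HFD+PE 1 to 0.398.

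*Hsd17b4* encodes the D-bifunctional enzyme, which carries out the same pair of steps for branched chains and bile acid precursors. Its levels spanned 11.3 to 11.7 in chow, 11.6 to 11.8 in HFD and 11.4 to 12.0 in HFD+PE, with medians of 11.6, 11.7 and 11.75. The groups overlapped throughout, and HFD+PE 5 at 12.0 and HFD+PE 2 at 11.9 were the highest of all animals. Group differences were small: 0.16 for HFD over chow (-0.08 to 0.40), 0.03 for HFD+PE over HFD (-0.21 to 0.27) and 0.19 for HFD+PE over chow (-0.05 to 0.43). The intervals leave out a difference of 0.5 log2 units in either direction. With the control level as a covariate HFD over chow was 0.03. Without chow 2 it was 0.10, and without chow 1 or chow 3-4 it was 0.20. Among the high-set arrays the means of HFD+PE and chow were equal at 11.6, and among the low-set arrays they differed by 0.27.

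The auxiliary enzymes *Ech1* and *Decr2* reshape double bonds so that unsaturated chains can enter the spiral. *Ech1* encodes a dienoyl-CoA isomerase that is found in peroxisomes and in mitochondria. In chow its log2 levels were 10.8, 10.1, 10.7, 10.7 and 10.7 in animals 1, 2, 3-4, 5 and 6. In HFD they were 10.6, 10.4, 10.9, 11.0 and 11.1 in animals 1-2, 3, 4, 5 and 6. In HFD+PE they were 10.8, 11.6, 11.0, 11.2 and 11.0 in animals 1, 2, 3-4, 5 and 6. The chow group was tight apart from animal 2, and 4 of 5 HFD+PE animals lay above all chow animals while animal 1 equalled the highest.

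Means of *Ech1* were 10.60 ± 0.28 in chow, 10.80 ± 0.29 in HFD and 11.12 ± 0.30 in HFD+PE (SD, n = 5 each). HFD+PE exceeded chow by 0.52 (0.17 to 0.87), a 1.43-fold difference with an adjusted p of 0.238 in limma. Its unadjusted p was 0.00632 and its exact permutation p 0.0159. HFD+PE over HFD was 0.32 (-0.03 to 0.67, adjusted p = 0.993) and came to 0.20 without HFD+PE 2 and to 0.40 without HFD+PE 1. HFD over chow was 0.20 (-0.15 to 0.55, adjusted p = 0.825). It was 0.075 without chow 2, 0.30 without HFD 3 and -0.039 with the control level as a covariate. HFD+PE over chow was 0.50 among the low-set arrays and 0.37 among the high-set arrays.

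*Decr2* encodes the peroxisomal 2,4-dienoyl-CoA reductase and had the smallest standard error (SE) of the 8 genes, 0.08 log2 units in each comparison. Its levels ran from 10.2 to 10.6 in chow, 10.2 to 10.4 in HFD and 10.4 to 10.6 in HFD+PE. In HFD+PE, 3 animals were at 10.4, and in HFD the single animal at that level was 1-2, so the groups met only at that value. HFD+PE exceeded HFD by 0.18 (0.01 to 0.35), with an unadjusted p of 0.0374, an adjusted p of 0.993 and an exact permutation p of 0.0317. HFD was 0.11 below chow in the mean (a change of -0.11, interval -0.28 to 0.06), and HFD+PE was 0.07 above it (-0.10 to 0.24). The first was -0.057 without chow 1 and -0.157 without chow 2. The second was 0.123 without chow 1, 0.023 without chow 2 and 0.035 without HFD+PE 2.

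*Acox2* and *Amacr* both serve the side chain of bile acid precursors. *Acox2* encodes an acyl-CoA oxidase that acts on this side chain, and *Amacr* the racemase that turns its methyl branch into the form the oxidase accepts. *Acox2* ranged from 10.9 to 11.35 in chow and from 11.0 to 11.6 in HFD. In HFD+PE it stood at 11.4 in 4 animals and at 11.2 in animal 3-4. These 4 animals exceeded every chow animal, whose highest was 3-4, and HFD overlapped both groups. HFD+PE over chow was 0.25 (0.0 to 0.50), with an unadjusted p of 0.0512 and an adjusted p of 0.454 in limma and an exact permutation p of 0.0238. HFD over chow was 0.15 (-0.10 to 0.40) and came to 0.065 without HFD 4 and to 0.215 without HFD 1-2 or without HFD 5. HFD+PE over HFD was 0.10 (-0.15 to 0.35), and ranged from 0.035 without HFD 1-2 or without HFD 5 to 0.16 without HFD 3 and 0.185 without HFD 4.

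*Amacr* was close in the 3 group means, at 12.17 ± 0.13 in chow, 12.04 ± 0.47 in HFD and 12.22 ± 0.36 in HFD+PE. Its chow animals lay within 12.0 to 12.3. The HFD animals ran from 11.4 in animal 1-2 to 12.6 in animal 4, and those of HFD+PE from 11.8 in animal 3-4 to 12.6 in animal 6. Both arrays of HFD 1-2 read 11.4, and both of HFD+PE 3-4 read 11.8. These arrays were paired for their likeness, so their equal values are no separate support for the low levels. The difference was -0.13 for HFD minus chow (-0.54 to 0.28), 0.18 for HFD+PE minus HFD (-0.23 to 0.59) and 0.05 for HFD+PE minus chow (-0.36 to 0.46). Without HFD 1-2 the first was 0.03 and the second 0.02, so that this animal set the sign of the first.

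*Crat* encodes carnitine acetyltransferase, which moves short acyl groups onto carnitine in peroxisomes and mitochondria. In chow its levels ran from 8.2 in animal 2 to 8.8 in animals 1 and 6. In HFD they were 8.5, 8.2, 7.8, 8.5 and 8.3 in animals 1-2, 3, 4, 5 and 6. In HFD+PE they were 8.2, 8.1, 9.2, 8.9 and 8.8 in animals 1, 2, 3-4, 5 and 6. The HFD+PE animals thus formed a high set of 3 above every HFD animal and a low pair within the HFD range.

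For *Crat*, HFD+PE minus HFD was 0.38 (-0.04 to 0.80), with an adjusted p of 0.993 and an exact permutation p of 0.19. It was 0.24 without HFD+PE 3-4 and 0.515 without HFD+PE 2. HFD minus chow was -0.29 (-0.71 to 0.13, adjusted p = 0.767), and was -0.18 without HFD 4 and -0.38 without chow 2. HFD+PE minus chow was 0.09 (-0.33 to 0.51), with a sign that turned to -0.05 without HFD+PE 3-4, whose arrays both read 9.2.

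*Pex11a* encodes a membrane protein that elongates peroxisomes before they divide and is induced when peroxisomes proliferate. Its chow levels were 8.70, 8.10, 8.65, 9.10 and 9.20 in animals 1, 2, 3-4, 5 and 6. In HFD they were 8.70, 8.10, 8.30, 8.60 and 8.70 in animals 1-2, 3, 4, 5 and 6. In HFD+PE they were 8.8, 8.6, 9.0, 9.0 and 8.8 in animals 1, 2, 3-4, 5 and 6. Apart from animal 2 at 8.6, the HFD+PE animals lay above every HFD animal, and the chow animals spread across both.

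HFD+PE exceeded HFD by 0.36 in *Pex11a* (-0.01 to 0.73), with an adjusted p of 0.993 in limma and an exact permutation p of 0.0476. HFD minus chow was -0.27 (-0.64 to 0.10, adjusted p = 0.754). Single animals moved this value both ways: it was -0.43 without chow 2 (adjusted p = 0.77), -0.16 without chow 6 and -0.18 without HFD 3. It was -0.43 with the control level as a covariate and -0.52 among the low-set arrays (adjusted p = 0.857), which leave out the arrays chow 1, 2 and 3. HFD+PE minus chow was 0.09 (-0.28 to 0.46), and it was -0.12 over the low-set arrays and 0.38 over the high-set arrays. The dimmer probe set of the gene, 1387740_at, had changes of -0.28, 0.23 and -0.05 in the same order as HFD minus chow, HFD+PE minus HFD and HFD+PE minus chow.

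The thiolase step is covered by probe set 1387783_a_at, shared between *Acaa1a* and *Acaa1b*, and its signal cannot be assigned to either gene. It stood at 11.56 ± 0.055 in chow, 11.61 ± 0.089 in HFD and 11.70 ± 0.10 in HFD+PE (SD, n = 5 each). HFD+PE minus chow was 0.14 with an SE of 0.071. Over 31042 probe sets the adjusted p in limma was 0.616. HFD+PE minus HFD was 0.09 and HFD minus chow 0.05, with the same SE.

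**Figure D2:**
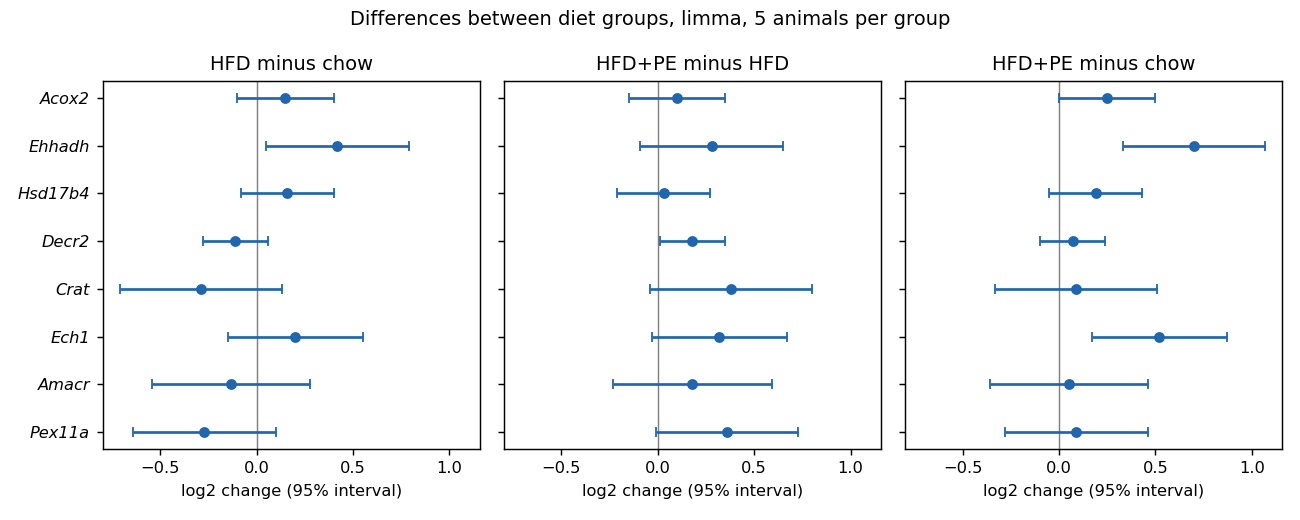
Log2 difference and 95% interval of each gene in limma for HFD minus chow, HFD+PE minus HFD and HFD+PE minus chow, over 5 animals per group, with a vertical line at 0. All points lie right of 0 in the panels with HFD+PE, the smallest being 0.03 for *Hsd17b4* and 0.05 for *Amacr*, and 4 of 8 lie left of it for HFD minus chow.

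Set side by side, the 3 comparisons differ in their signs, and each shares a group with the others, so that they are not independent. For HFD minus chow, 4 of 8 genes were higher, where 49.9% of all genes were. For HFD+PE minus HFD all 8 were higher, where 49.2% of all genes were, and for HFD+PE minus chow all 8 were higher, where 51.1% were. The median difference of the 8 genes was 0.02, 0.23 and 0.14 in that order, against 0.0, 0.0 and 0.01 over all genes. Leaving out 1 animal at a time gave 4 to 5, 7 to 8 and 7 to 8 higher. With the control covariate 3 of 8 were higher in HFD than in chow. For HFD+PE minus chow 6 of 8 were higher among the low-set arrays, and 7 of 8 with 18 arrays as separate animals. The 8 genes were measured in the same animals and do not count as 8 independent observations. They were also chosen with earlier results of these data known, so these counts are no independent support.

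At an unadjusted p under 0.05 the counts were small. *Ehhadh* passed in HFD against chow, 1 of 8 genes against 7.65% of all genes, or 4.08% counting those higher. Without HFD 5 or without HFD 6, 0 of 8 passed, where 1005 and 877 of all genes did. Without chow 2 the gene that passed was *Pex11a* (unadjusted p = 0.00972 in limma) and not *Ehhadh* (0.0925), and the same held with the control covariate (0.0453 and 0.289). *Decr2* passed in HFD+PE against HFD, 1 of 8 against 2.7% of all genes, or 1.64% counting those higher. That count rested on single animals. It was 4 without HFD+PE 1, 3 without HFD 6 and 2 without HFD 1-2 or HFD+PE 2. It was 0 without HFD 3, HFD 4 or HFD+PE 6. Over all 14217 genes the count was 476, 381, 475, 600, 398, 559 and 367 in the same order, against 384 with all animals. *Ehhadh* and *Ech1* passed in HFD+PE against chow, 2 of 8 against 11.1%, or 6.0% counting those higher, and 3 passed without chow 3-4, HFD+PE 1 or HFD+PE 3-4. The F test over the 3 groups gave the same 2 genes, against 8.14% of all genes, and an adjusted count of 0 of 8 against 0.0%. In 0 of 8 genes were the animals of 2 groups fully apart, against 0.521%, 0.134% and 1.41% of all genes in the 3 comparisons. The exact permutation p-values given above come from 24 tests and are not adjusted, and with 5 animals against 5 the smallest they can give is 0.00794.

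**Figure D3:**
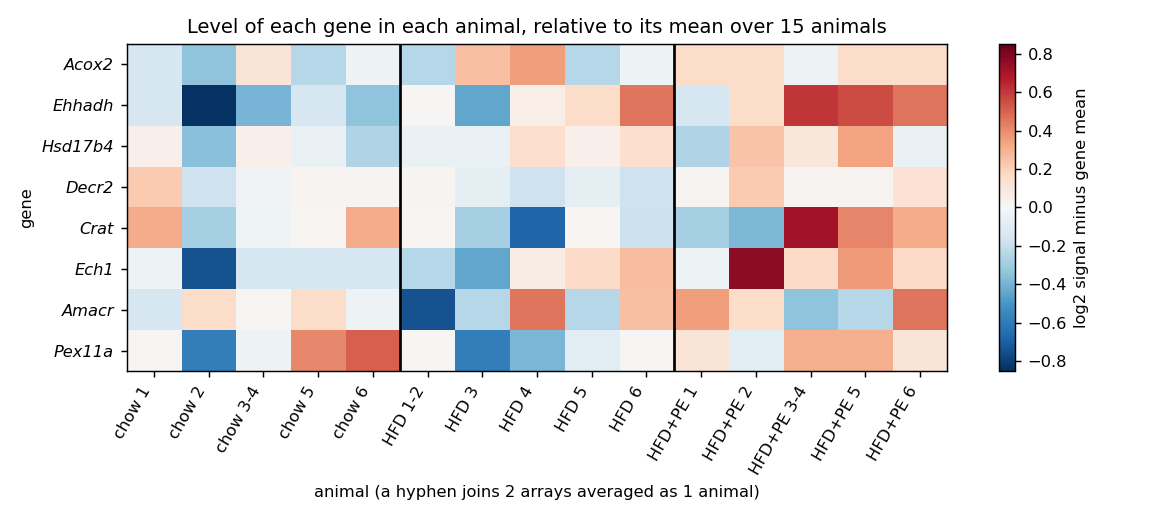
Log2 signal of each of the 8 genes (vertical axis) in each of the 15 animals (horizontal axis), relative to the gene's mean over all animals, with red above and blue below it and black lines between the groups. The column of chow 2 is blue in 7 of 8 genes, and the HFD+PE columns from animal 2 onward are mostly red.

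Animals of the same group also differed from each other. Chow 2 had the lowest level of its group in 7 of 8 genes, *Amacr* being the exception, and its mean deviation from the 15-animal mean was -0.40. The other chow animals lay between -0.06 and 0.02. HFD 3 had the lowest mean deviation of its group at -0.23 and HFD 6 the highest at 0.09. In HFD+PE the deviations were -0.01 in animal 1, 0.15 in animal 2, 0.19 in animal 3-4, 0.24 in animal 5 and 0.22 in animal 6. Chow 1, chow 2 and HFD+PE 1 were hybridised in the high control set, with mean deviations of 0.02, -0.40 and -0.01. Chow 1 had the highest level of its group in 5 of 8 genes. Chow 2 also had the highest mean of macrophage markers and the lowest mean of hepatocyte markers, 13.10. The part of the control set and of these cell types in these levels was not tested.

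Macrophage markers were lower in both high fat groups. Of the 10 measured, 0 were higher in HFD than in chow with a median of -0.52, 2 were higher in HFD+PE than in HFD with a median of -0.30, and 2 were higher in HFD+PE than in chow with a median of -0.80. None passed the adjusted threshold in limma. At an unadjusted p under 0.05, 6 of 10 were lower in HFD than in chow and 8 of 10 in HFD+PE than in chow, against 7.65% and 11.1% of all genes in either direction. Of 8 markers of stellate cells and fibroblasts, 0 were higher in HFD than in chow (median -0.18) and 1 in HFD+PE than in chow (median -0.32, with 3 lower at an unadjusted p under 0.05). Of 3 erythrocyte markers, 0 were higher in either (medians -0.34 and -0.26). The part of these cell types in the differences above was not tested. Hepatocyte markers had medians of -0.02, 0.01 and 0.0 in the same comparisons.

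With the group means removed, the 28 pairs of genes had a median Pearson r of 0.19 over 15 animals, and 19 of the 28 were above 0. The closest pair was *Hsd17b4* and *Ech1* at 0.75 (Spearman rho 0.67), which was 0.61 without HFD+PE 1 and chow 2. *Ehhadh* and *Pex11a* followed at 0.70 (rho 0.63), with 0.42 left without HFD 3 and chow 2, and *Ehhadh* and *Ech1* had 0.64 (rho 0.49), with 0.33 left without the same animals. *Crat* and *Amacr* went opposite ways at -0.65. The points share arrays and their normalization, and these values describe the animals without a test.

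Genes were also ranked by likeness to the mean of the 8 over the same 15 animals, again with group means removed. Those named only by LOC or RGD and a number were left out. The highest were *Apoa2* (r = 0.933), *Etfa* (0.878), *Ghitm* (0.876), *Decr1* (0.875) and *Gas2* (0.874). These values are the top of a long ranking, without a test, and were not recomputed without single animals. *Apoa2* encodes an apolipoprotein of high density lipoprotein, *Etfa* a subunit of the flavoprotein that takes electrons from mitochondrial acyl-CoA dehydrogenases, and *Decr1* the mitochondrial counterpart of *Decr2*. Between groups they did not all differ in the same way: HFD+PE minus chow was 0.03 for *Apoa2*, 0.08 for *Ghitm*, 0.21 for *Etfa*, 0.38 for *Decr1* and 0.43 for *Gas2*. By list, the median r with the mean of the 8 was 0.62 for mitochondrial beta-oxidation and 0.50 for PPAR-alpha targets outside the peroxisome. It was 0.46 for other peroxisomal fatty acid genes, 0.35 for peroxins, 0.21 for the list of mostly matrix enzymes and -0.05 for PPAR-alpha and its partners. Over all genes in the ranking it was 0.02.

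The rest of the peroxisome was described by lists that, like the members, were chosen with earlier results of these data known. No gene in any of them passed the adjusted threshold in any comparison. Of other peroxisomal fatty acid enzymes and transporters, 22 of 26 were measured. Of these, 12 were higher in HFD than in chow, 15 higher in HFD+PE than in HFD and 12 higher in HFD+PE than in chow, with medians of 0.02, 0.06 and 0.02. At an unadjusted p under 0.05, 2, 0 and 2 were higher and 0 lower. Of all genes, 4.08%, 1.64% and 6.0% were higher at that threshold. *Slc27a2*, a very long chain acyl-CoA synthetase, stood at 13.28 ± 0.13 in chow, 13.46 ± 0.15 in HFD and 13.53 ± 0.07 in HFD+PE, a difference of 0.25 between the last and chow (SE 0.085, adjusted p = 0.263). *Acbd5*, which tethers peroxisomes to the endoplasmic reticulum, was 0.23 higher in HFD than in chow (adjusted p = 0.615), and the matrix protease *Tysnd1* 0.19 higher in HFD+PE than in chow (adjusted p = 0.409).

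Of genes named whatever their values, *Abcd3*, which carries fatty acids into the peroxisome, differed by -0.22 between HFD and chow (adjusted p = 0.66) and by -0.10 between HFD+PE and chow. *Scp2*, the source of the thiolase for branched chains, differed by 0.01 and -0.08. *Crot*, which makes carnitine esters of medium chains for export, differed by 0.21 and 0.27, with an SE of 0.279 that exceeds both.

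**Figure D4:**
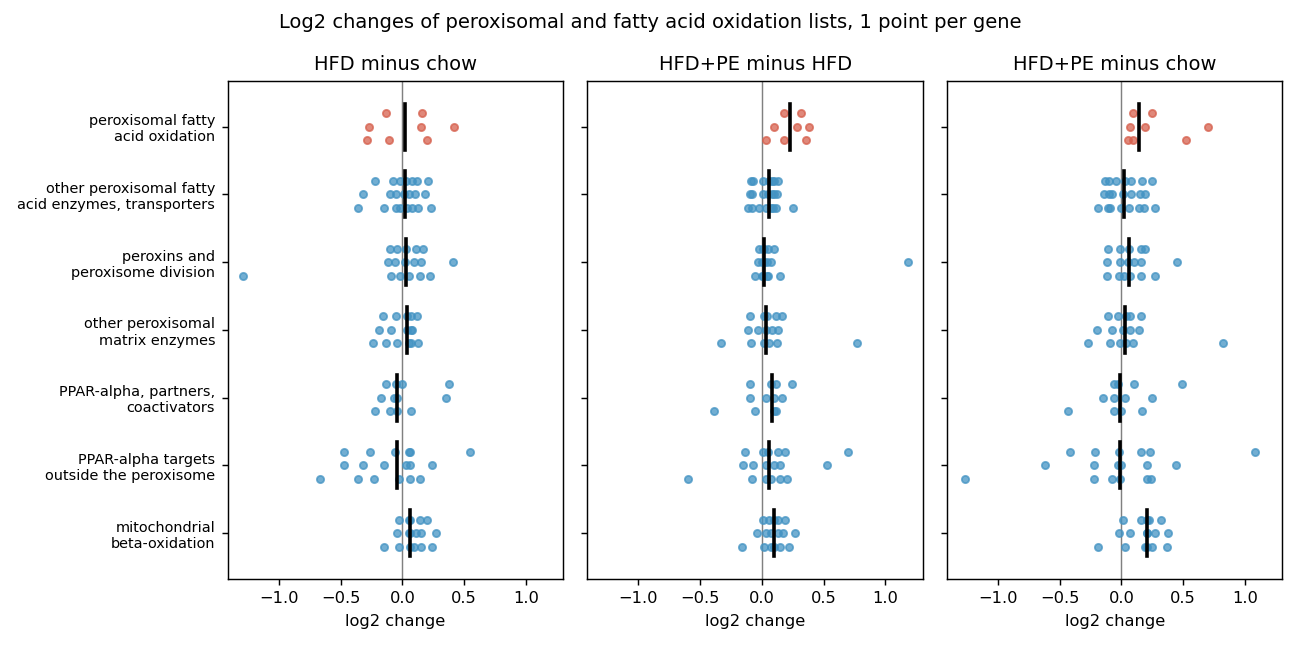
Log2 difference of every measured gene (points) for 7 lists of peroxisomal, PPAR-alpha and mitochondrial genes, with a black bar at each list's median, for HFD minus chow, HFD+PE minus HFD and HFD+PE minus chow. The members' median is 0.23 in the middle panel, where the other 6 lists have medians from 0.02 to 0.10. It is 0.02 for HFD minus chow and 0.14 for HFD+PE minus chow, below mitochondrial beta-oxidation at 0.06 and 0.21.

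Peroxins build the organelle and import its enzymes. Of 20 peroxins and division genes 17 were measured, and 10, 12 and 11 were higher in HFD minus chow, HFD+PE minus HFD and HFD+PE minus chow, with medians of 0.03, 0.02 and 0.06. At an unadjusted p under 0.05, 2, 1 and 3 were higher and 1, 0 and 0 lower. Of all genes, 7.65%, 2.7% and 11.1% passed in either direction. *Pex3*, needed to form peroxisomal membranes, was 6.57 ± 0.24 in chow, 6.98 ± 0.28 in HFD and 7.02 ± 0.33 in HFD+PE (adjusted p = 0.578 for HFD against chow). *Pxmp2*, a channel of the membrane, was 0.16 higher in HFD+PE than in chow (adjusted p = 0.358), and *Pex7*, an import receptor, 0.27 higher (adjusted p = 0.434). *Pex5*, the receptor that imports most matrix enzymes, differed by -0.06, 0.04 and -0.02.

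*Pxmp4*, a peroxisomal membrane protein, had the widest spread of that list. Its levels ran from 10 to 11.25 in chow and from 9.9 to 11.2 in HFD+PE, while HFD held 8.4 in animal 5 and 7.7 in animal 6 beside 9.7 to 11.0 in the rest. HFD minus chow was -1.29 (SE 0.496, adjusted p = 0.572) and HFD+PE minus HFD 1.18 (adjusted p = 0.993). Those 2 animals had *Ehhadh* at 11.10 and 11.40, the highest HFD levels of that gene.

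A list of other genes, mostly matrix enzymes, was nearly level: 9, 11 and 9 of 16 measured genes were higher, with medians of 0.04, 0.04 and 0.02. In HFD against chow 1 was lower at an unadjusted p under 0.05, where 7.65% of all genes passed in either direction. That gene was *Far1*, an enzyme of ether lipid synthesis, at a dim 3.67 in chow and 3.43 in HFD. *Cat*, the catalase that removes the peroxide made by the oxidases, differed by 0.07, -0.03 and 0.04. *Uox*, urate oxidase, differed by 0.13, -0.33 and -0.20, and *Hao1*, hydroxyacid oxidase, by 0.12, 0.02 and 0.14. *Ephx2*, an epoxide hydrolase, was 0.82 higher in HFD+PE than in chow (SE 0.459, adjusted p = 0.566). Chow 2 was at 8.4 and chow 6 at 8.7, where the other chow animals were at 9.6 to 9.85 and HFD+PE at 9.7 to 10.5. In HFD, animal 6 was at 7.1 and the others at 9.7 to 10.3.

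For PPAR-alpha, its partners and coactivators, 3, 8 and 5 of 12 measured genes were higher, with medians of -0.04, 0.08 and -0.02. *Ppara* itself was 5.85 ± 0.34 in chow, 6.23 ± 0.48 in HFD and 6.34 ± 0.61 in HFD+PE, with an adjusted p of 0.548 for the last against chow. *Pparg* was 0.35 higher in HFD than in chow (adjusted p = 0.625), at a dim 4.88 in chow and 5.23 in HFD. *Rxra* differed by -0.22 (adjusted p = 0.671), at 5.63 in chow and 5.41 in HFD. The median over all probe sets was 5.43. *Ppargc1b*, a coactivator of mitochondrial and lipid genes, differed by -0.39 between HFD+PE and HFD (adjusted p = 0.993) and by -0.43 between HFD+PE and chow (adjusted p = 0.27).

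PPAR-alpha targets outside the peroxisome did not share 1 direction. Of 18 measured, 8, 13 and 7 were higher, with medians of -0.04, 0.06 and -0.02. *Vnn1*, a pantetheinase, was 8.38 ± 0.54 in chow, 8.93 ± 0.26 in HFD and 9.46 ± 0.29 in HFD+PE. Its HFD+PE animals, at 9.2 to 9.9, all lay above the chow animals, at 7.7 to 8.8, a difference of 1.08 (SE 0.212, adjusted p = 0.104). *Cyp4a8*, a fatty acid hydroxylase, lay the other way, from 8.0 to 9.25 in chow and from 5.9 to 7.9 in HFD+PE, a difference of -1.27 (adjusted p = 0.275). *Angptl4*, an inhibitor of lipoprotein lipase, differed by -0.62 between the same groups (adjusted p = 0.222). The fixed names *Cyp4a1* and *Cpt1a*, the mitochondrial gatekeeper, differed by -0.03 and 0.21.

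Mitochondrial beta-oxidation genes, which finish what peroxisomes begin, were mostly higher in HFD+PE: 13, 15 and 15 of 17 were higher, with medians of 0.06, 0.10 and 0.21. At an unadjusted p under 0.05, 2 of 17 were higher in HFD+PE than in chow, where 6.0% of all genes were, and 0 lower. They were *Decr1*, at 11.57 ± 0.23 in chow and 11.95 ± 0.14 in HFD+PE (adjusted p = 0.297), and the thiolase *Acaa2*, at 11.51 ± 0.22 and 11.88 ± 0.22 (adjusted p = 0.356). *Acadl*, the long chain dehydrogenase, was 0.27 higher (adjusted p = 0.48).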

How the data were processed

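Per the submitters' processing notes, the authors summarised the arrays with Affymetrix Expression Console and RMA, which corrects background, quantile-normalizes arrays and combines the probes of a set (versions: not given in the sources used here). What the authors deposited is a log2 signal per probe set, 31099 of them on each of 18 arrays, and all 559782 values were whole multiples of 0.1. Precision is limited by this rounding and by the few animals.

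Without the 57 control probe sets, the 20826 probe sets with 1 symbol gave 14217 genes. Arrays with 0 probe sets over 2 log2 units apart were averaged. Group differences came from limma 3.58.1 under R 4.3.3 (lmFit, eBayes, two-sided, 95% intervals), with Benjamini-Hochberg adjustment over all genes, and checked on simulated data. Exact two-sided permutation p-values were not adjusted. If the arrays are not separate animals, p-values measure technical spread.

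The members and the 7 gene lists were chosen with earlier results of these data known. All members were named, and from each list up to 4 genes with the smallest unadjusted p, plus fixed names, of which some are not reported here. Alternatives covered the pairs, hybridization controls, scaling, a minimum mean of 5.43, the groups fitted, probe sets and each animal left out.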

Additional observations from a re-analysis of the deposited data

Results flagged for a closer look

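Each of the 8 genes was examined in each group of 5 animals for a lowest or highest animal far from the rest, 24 groups in all, of which chance marks about 1 in 20. *Acox2* in HFD+PE 3-4 was 11.2, where the other 4 animals of the group were all at 11.4, so that the distance is the whole range of the group and only 0.2 log2 units. *Ech1* in chow 2 was 10.1, where the other chow animals were at 10.7 to 10.8, and HFD+PE minus chow was 0.40 without that animal (adjusted p = 0.447 in limma).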

How the results depend on the processing

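Of 483 changes of single genes recomputed under alternatives, 467 kept their sign and their side of the threshold, 14 changed sign and 2 came past the threshold. Those 2 were *Ehhadh* in HFD+PE against chow, at 0.75 in each: with 18 arrays as separate animals (adjusted p = 0.0313) and with the replicate block on those arrays (adjusted p = 0.0427). These settings called 1 member and 145 and 119 genes; the low control set called 3 genes, and leaving out 1 animal gave 0 to 26, the most without HFD+PE 3-4. With only HFD+PE 3 and 4 as separate animals, added after seeing the data, its adjusted p was 0.0754. Replicate numbers did not pair the samples: over 18 same-numbered pairs the correlation of deviations ran from -0.305 to 0.189, and 5 of 18 arrays were closest to their own number.

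At an unadjusted p under 0.05, the members counted in HFD+PE against HFD were 1 in the report, 5 with 18 arrays, 4 with the replicate block, 3 with HFD+PE 3 and 4 apart, 4 with the control covariate, 5 in the low control set, 0 with arrays centred on their medians, 2 with 2 groups fitted and 0 to 4 without 1 animal. Genes so counted were 384 in the report, 725 with 18 arrays, 711 with the block and 610 in the low set. They were 498 with HFD+PE 3 and 4 apart, 475 with the covariate, 354 with centred arrays and 360 with 2 groups fitted. Without 1 animal they were 316 to 600, and 0 to 2 genes were called. In HFD against chow the low control set counted 2 members and 790 genes and called 1 gene. The covariate counted 721 genes where the report has 1088. Leaving out 1 animal counted 0 to 1 members and 847 to 1419 genes, and called 0 to 1 genes.

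Signs turned where a change was small. *Ech1*, HFD minus chow, was -0.039 with the covariate. *Amacr*, HFD+PE minus chow, was -0.017 with 18 arrays, with the replicate block and in the low set, -0.02 with HFD+PE 3 and 4 apart, and -0.045 to 0.155 without 1 animal; HFD minus chow was -0.27 to 0.03. *Pex11a*, HFD+PE minus chow, was -0.125 in the low set, -0.05 by its other probe set and -0.073 to 0.203 without 1 animal. *Crat*, HFD+PE minus chow, was -0.05 to 0.225 and *Hsd17b4*, HFD+PE minus HFD, -0.037 to 0.113. Beyond the settings named, the cause was not tested.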
